A study of Mus musculus with 4 samples.

Results

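N6-methyladenosine (m6A) peaks on genes annotated as antisense RNAs were examined in mouse natural killer (NK) cells. The members were all distinct rows of the deposited peak list whose gene has the type antisense or bidirectional promoter lncRNA in GENCODE release M21 for GRCm38, and no measured value entered the choice. There were 330 such peaks in 269 genes, out of 20727 distinct peaks in 12351 genes. Of these, 297 peaks lay on 244 antisense genes and 33 on 25 bidirectional promoter lncRNA genes, whereas the annotation holds 2959 genes of the first type and 190 of the second.

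The cells were splenic NK cells from C57BL/6 mice, with 2 m6A immunoprecipitates and 2 input libraries and no second genotype or treatment. According to the study's methods, NK cells had been expanded in all animals by a plasmid that expresses IL-15, so the list describes IL-15-driven cells. Poly(A) RNA was fragmented and precipitated with an antibody against m6A. The list gives 1 fold enrichment (immunoprecipitate over input) and 1 peak-calling p-value for each peak across all 4 libraries. No column holds a value per sample, so depth and the error between replicates are unknown, no comparison below carries a test, and intervals for shares (Wilson), medians (order statistics) and site densities (Poisson) are at 95% and cover counting error only. All 8 defining NK genes examined had a peak (Ncr1, Klrk1, Klrb1c, Klrd1, Prf1, Gzmb, Tbx21 and Eomes), against 46.3% of all annotated coding genes. Marker genes of other cell types were not examined, so this is no test of purity.

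An antisense RNA is transcribed from the strand opposite another gene, and often overlaps its exons, introns, start or end. Such RNAs can act in cis on their neighbour, as Airn and Tsix do in genomic imprinting and X inactivation, but most have no known function. A bidirectional promoter lncRNA starts beside the promoter of a coding gene and runs the other way. m6A is deposited on adenosines within the DRACH context (A, G or T, then A or G, then AC, then A, C or T), of which sites beginning with GGAC are a favoured form. Since it marks a single RNA strand, the strand of the motif matters wherever both strands are transcribed. The strandedness of the MeRIP libraries is not stated in the sources used here, and the list has no strand column, so reads of an antisense gene and of a gene on the other strand cannot be told apart.

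Sequences from the GRCm38 reference show what this means at individual peaks. The first set holds 25-nt windows around the first GGAC-type DRACH site on the coding strand, taken where an exon of the antisense gene and an exon of the coding gene coincide within the peak. They come from the member genes with the lowest p-values over such shared bases. Capitals mark the site, and each is read 5′ to 3′ on the strand of the coding gene. A sixth gene, Gm11683, had no such site in its 36 shared exonic bases.
Jund, coding sequence, under Gm11175, chr8:70699818-70699842, plus strand: ccatcgacatGGACAcgcaagaacg
Sdc3, UTR, under Gm26716, chr4:130824551-130824575, plus strand: tctgggtaatGGACAggatctaggc
Rfx5, UTR, under B230398E01Rik, chr3:94961245-94961269, plus strand: tctgagctggGGACTgttgcctctt
Jun, UTR, under Junos, chr4:95051671-95051695, minus strand: gcggaggaggGGACAgttgtcggag
Supt5, coding sequence, under Gm44709, chr7:28315236-28315260, minus strand: ttctgggtgaGGACCgagaggctac
The same 25 bases of the first window, read on the minus strand, which is that of Gm11175, hold no adenosine in the place of the motif. This follows from the choice of the window, since GGACA always reads TGTCC on the other strand, and does not tell which RNA was marked. Over the shared bases of all such members, GGAC occurred 57 times on the antisense gene's strand and 81 times on the coding strand. Capitals mark the complement of the Jund site.
Gm11175, chr8:70699818-70699842, minus strand: cgttcttgcgTGTCCatgtcgatgg

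The second set was taken from members with no coding exon of either strand beneath them. Gm47917, Prkag2os1 and Airn nevertheless lie in an intron of a coding gene on the other strand. For Gm47917 and Prkag2os1 the 120-nt exonic window with the most DRACH sites is shown. Such windows were made for the 5 genes of this kind with the lowest p-values, and these are the first 2, which also held the most sites. For Brip1os, Tug1 and Airn the whole peak is shown, and the first 2 of these were chosen after their values were seen. Capitals mark DRACH sites on the strand of the antisense gene.
Gm47917, chr10:54063965-54064084, plus strand: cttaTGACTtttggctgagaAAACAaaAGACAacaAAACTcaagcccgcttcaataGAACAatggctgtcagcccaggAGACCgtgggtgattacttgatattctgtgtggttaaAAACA
Prkag2os1, chr5:24902679-24902798, plus strand: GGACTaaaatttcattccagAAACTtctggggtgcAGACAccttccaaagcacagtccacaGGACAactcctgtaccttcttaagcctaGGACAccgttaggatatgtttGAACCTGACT
Brip1os, chr11:86208267-86208417, plus strand: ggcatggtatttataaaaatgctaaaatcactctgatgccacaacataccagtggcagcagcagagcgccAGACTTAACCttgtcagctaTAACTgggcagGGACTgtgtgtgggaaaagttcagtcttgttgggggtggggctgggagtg
Tug1, chr11:3648569-3648689, minus strand: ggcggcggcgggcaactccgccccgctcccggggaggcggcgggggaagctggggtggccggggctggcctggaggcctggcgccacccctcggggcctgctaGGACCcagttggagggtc
Airn, chr17:12741311-12741371, plus strand: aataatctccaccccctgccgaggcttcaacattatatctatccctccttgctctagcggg
The windows of Gm47917 and Prkag2os1 each held 7 sites, Brip1os held 4, Tug1 held 1 and the 61-nt Airn peak held 0. The 3 windows not shown, of Gm11131, Ndufb1-ps and E230032D23Rik, held 5, 3 and 5.

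The antisense RNA peaks were highly enriched but often weakly supported. Their median fold enrichment was 7.59 (5.69 to 9.48), with an interquartile range of 3.03 to 14.7 and extremes of 1.38 and 239, against a median of 2.66 over all peaks. A fold of at least 5 was found in 194 members (58.8%, 53.4 to 64.0), whereas 34.6% of all peaks reached it. By contrast, a p-value under 0.001 was found in 160 members (48.5%, 43.1 to 53.9), against 61.5% of all peaks. Peaks of long intergenic noncoding RNAs (lincRNAs) had a median fold of 11.4, with 70.6% at 5 or above and 54.7% under the p-value threshold. Peaks assigned to protein-coding genes had a median fold of 2.37, with 29.5% and 62.3%. The median log10 p of the members was -2.91, within a range from -1240 to -1.31.

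Many members carried exactly the same values. A fold of 9.48 with a log10 p of -1.69 was listed for 25 members and for 845 peaks of the whole list. The pair 11.4 and -2.09 was listed for 17 members, and 13.3 and -2.50 for 11. These repeated values form the lower edge of the plot of fold enrichment against p-value, where the p-value falls as the fold rises. At the pair 15.2 and -2.91, listed for 8 members, the p-value still did not pass 0.001. The span of a member, introns included, had a median of 568 nt and ranged from 57 to 563071 nt, and 36 spans exceeded 10 kb. The exonic part had a median of 268 nt.

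**Figure D1:**
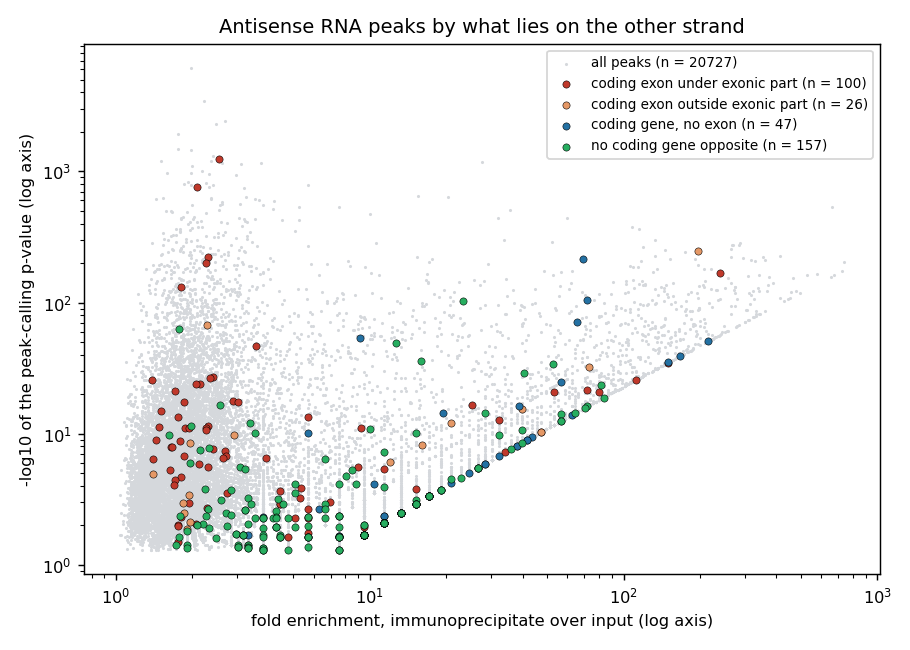
Fold enrichment (x, log axis) and -log10 of the peak-calling p-value (y, log axis) of the 330 antisense RNA peaks, coloured by what lies on the other strand, over all 20727 peaks in grey. Red points over coding exons reach the lowest p-values at folds near 2, and blue points inside coding introns lie mainly above a fold of 5.

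An exon of a protein-coding gene on the other strand lay under 126 of the 330 members (38.2%, 33.1 to 43.5), and 204 had none. Over all peaks with a known gene, 6.87% covered a coding exon on the strand opposite their own gene. The share was 4.99% for lincRNA peaks (27 of 541, 3.45 to 7.16) and 6.44% for coding peaks. All 126 belonged to genes of the antisense type, where they made up 42.4% of 297, and 0 of the 33 peaks of bidirectional promoter lncRNAs covered such an exon. These shares reflect in part what defines the gene types, since an antisense gene is annotated for its overlap.

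In 100 members (30.3%, 25.6 to 35.5) the coding exon lay beneath exonic bases of the antisense gene itself. In the other 26 it lay only under an intron of the antisense gene or outside its exons. A further 47 members (14.2%) lay within a coding gene of the other strand without touching an exon. For 157 (47.6%) no coding gene of the other strand was under the span.

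The peaks over a coding exon had lower folds and lower p-values than the others. Their median fold was 4.43 (2.74 to 6.95) and their median log10 p was -5.31, with 63.5% under a p of 0.001 (54.8 to 71.4). The 204 peaks without a coding exon had a median fold of 9.32 (7.59 to 9.48) and a median log10 p of -2.45, and 39.2% (32.8 to 46.1) were under the threshold. The intervals of the 2 shares do not overlap, nor do those of the median folds. They count each peak as independent, although some members overlap (295 remain after merging), so they are too narrow and the differences were not tested. Folds of at least 5 were found in 48.4% (39.9 to 57.1) and 65.2% (58.4 to 71.4), respectively.

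The 47 peaks inside coding introns stood apart within the second class. Their median fold was 15.2 (11.4 to 26.6), 44 of them (93.6%) reached a fold of 5, and 24 (51.1%) covered at least 90% of the exonic length of their gene. Among the 157 peaks with no coding gene opposite, the median fold was 6.64, 56.7% reached a fold of 5 and 7.64% covered at least 90% of the gene. Over all members, 63 (19.1%) covered at least 90% of the gene, against 9.84% of all peaks. The share was 42.7% for lincRNA peaks, higher than for the members, and 4.28% for coding peaks. For peaks that cover at least 90% of the gene the list gives no position within it. Of the 63, 27 lay over a coding exon of the other strand and 24 inside a coding gene without touching an exon.

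The UTR labels in the deposited list followed the other strand. Antisense RNAs have no coding sequence and hence no untranslated regions. Nevertheless 71 members carried the label 3′ UTR and 18 the label 5′ UTR, together 89 (27%). Of these 89 peaks, 88 covered an exon of a coding gene on the other strand. Among those labelled 3′ UTR, 62 of 71 covered an annotated 3′ UTR of that gene, and 16 of the 18 labelled 5′ UTR covered a 5′ UTR. The exception was A130051J06Rik, with a fold of 7.59 and a log10 p of -2.37 over 1468 nt. It is named because it fell outside the pattern.

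The remaining 241 members (73.0%) were labelled as exonic. In 216 of them the transcript in the label belonged to the assigned gene and in 25 to another gene, which was a coding gene on the other strand in 18. Peaks labelled 3′ UTR had a median fold of 2.88 and a median log10 p of -6.80, whereas those labelled exonic had 9.01 and -2.50. The UTR labels themselves name no transcript or gene.

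**Figure D2:**
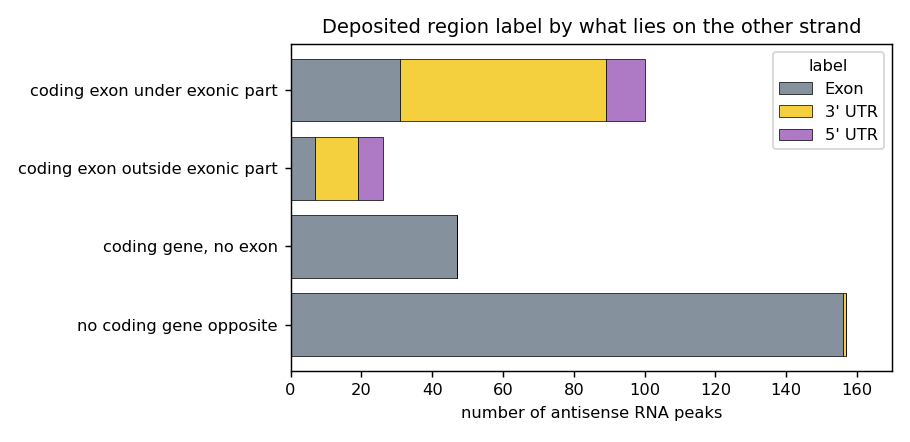
Number of antisense RNA peaks (x) with each deposited region label (Exon, 3′ UTR, 5′ UTR) in 4 classes of what lies on the other strand. The UTR labels fall on peaks over a coding exon, and 1 of 89 falls elsewhere.

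The position of the peaks along the antisense genes differed between both classes in a further respect, which was examined after the other values had been seen. An annotated transcript start of the assigned gene lay inside 115 of the 126 peaks over a coding exon (91.3%). It lay inside 82 of the 204 other members (40.2%), 60.6% of lincRNA peaks and 27.4% of all peaks. Of the 126, 119 (94.4%) were assigned to a gene whose start was the nearest of any gene on either strand, a share of 70.8% over all peaks. The median distance to the nearest start was 0 nt for the antisense gene and 3700 nt for the coding gene. ChIPseeker, the annotation tool, assigns a peak to the gene with the nearest start in its usual setting. The setting used is not given in the sources used here, and the part of this step in the assignments was not tested.

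Many of these peaks also ran beyond the gene they were assigned to. Of the 126, 54 (42.9%) extended past an annotated end of the antisense gene, 53 of them past its start, whereas 5 of the 204 others (2.45%) extended past an end. An edge of the peak coincided to the base with an exon end of the antisense gene in 57 of the 126 (45.2%) and in 113 of the 204 others (55.4%). In 15 of the 126 an edge coincided with an exon end of the coding gene that is not one of the antisense gene. Among the 74 peaks over a coding exon that held some but under 50% of the exonic length of the gene, 70 were centred in the first of 3 equal parts of that length (94.6%). Of the exonic bases that those 57 genes share with coding exons, 45.1% lie in the first part. The 145 comparable members without a coding exon were spread more evenly, with 50 in the first part, 42 in the middle and 53 in the last part, whereas 54.1% of coding peaks of this kind were centred in the last part.

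The members with the lowest p-values show these arrangements. Gm11175 (ENSMUSG00000080058, minus strand) lies inside the single exon of Jund, which encodes JunD, an AP-1 transcription factor. Its first peak (chr8:70699663-70700616, 954 nt) had a fold of 2.54 and a log10 p of -1240, the lowest of all members. All 954 bases lie under the Jund exon, 418 in coding sequence and 536 in the 3′ UTR. The 536 bases in the 3′ UTR are outside Gm11175, and the peak ends on the last base of Jund. The second peak (chr8:70699681-70700080, 400 nt) lies wholly in Jund coding sequence, with a fold of 2.08 and a log10 p of -762. The peaks overlap and share most of their bases. Jund had 2 peaks of its own, both nearer its 5′ end, with folds of 2.36 and 1.66. The GGAC site printed above lies in both Gm11175 peaks, on the Jund strand.

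Gm26716 (ENSMUSG00000097224) is likewise contained in the last exon of Sdc3, the gene of the heparan sulfate proteoglycan syndecan-3. Its peaks spanned 1890 nt (chr4:130824424-130826313, fold 2.30, log10 p -222) and 300 nt (chr4:130826020-130826319, fold 2.27, log10 p -199). Every base of both lies in the Sdc3 3′ UTR. The shorter one runs 6 nt past Gm26716 and ends on the final base of Sdc3. The overlapping peak of Sdc3 itself had a fold of 1.21 and a log10 p of -6.73.

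Junos (ENSMUSG00000087366) starts within the 5′ UTR of Jun, the AP-1 subunit c-Jun, and runs away from it. Its peak (chr4:95051298-95052073, 776 nt) had a fold of 1.81 and a log10 p of -131. All 776 bases lie in the Jun 5′ UTR and 232 are exonic in Junos, 5.64% of its exonic length. The overlapping Jun peak had nearly the same values, 1.93 and -119.

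B230398E01Rik (ENSMUSG00000087660) had the highest fold of all members, 239, with a log10 p of -167 (chr3:94961188-94962048, 861 nt). It overlaps the end of Rfx5, a subunit of the RFX complex that drives MHC class II genes. All 861 bases are exonic in B230398E01Rik and 374 coincide with the Rfx5 3′ UTR, while the rest lies beyond Rfx5. The overlapping peak of Rfx5 had a fold of 15.2 and a log10 p of -5.93. Thus, unlike the Gm11175 peaks, most of this peak lies where no exon of the coding partner is annotated.

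1700095A21Rik had a fold of 197 and a log10 p of -248 over a span of 27835 nt (chr4:146519039-146546873). Its span holds 2830 nt of Zfp981 exons, none of them under the 1069 exonic bases of the antisense gene. The Zfp981 peak that overlaps it had a fold of 19.0 and a log10 p of -3.75. Zfp981 belongs to a zinc finger family of similar copies, and how reads that match several copies were treated is not given in the sources used here.

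**Figure D3:**
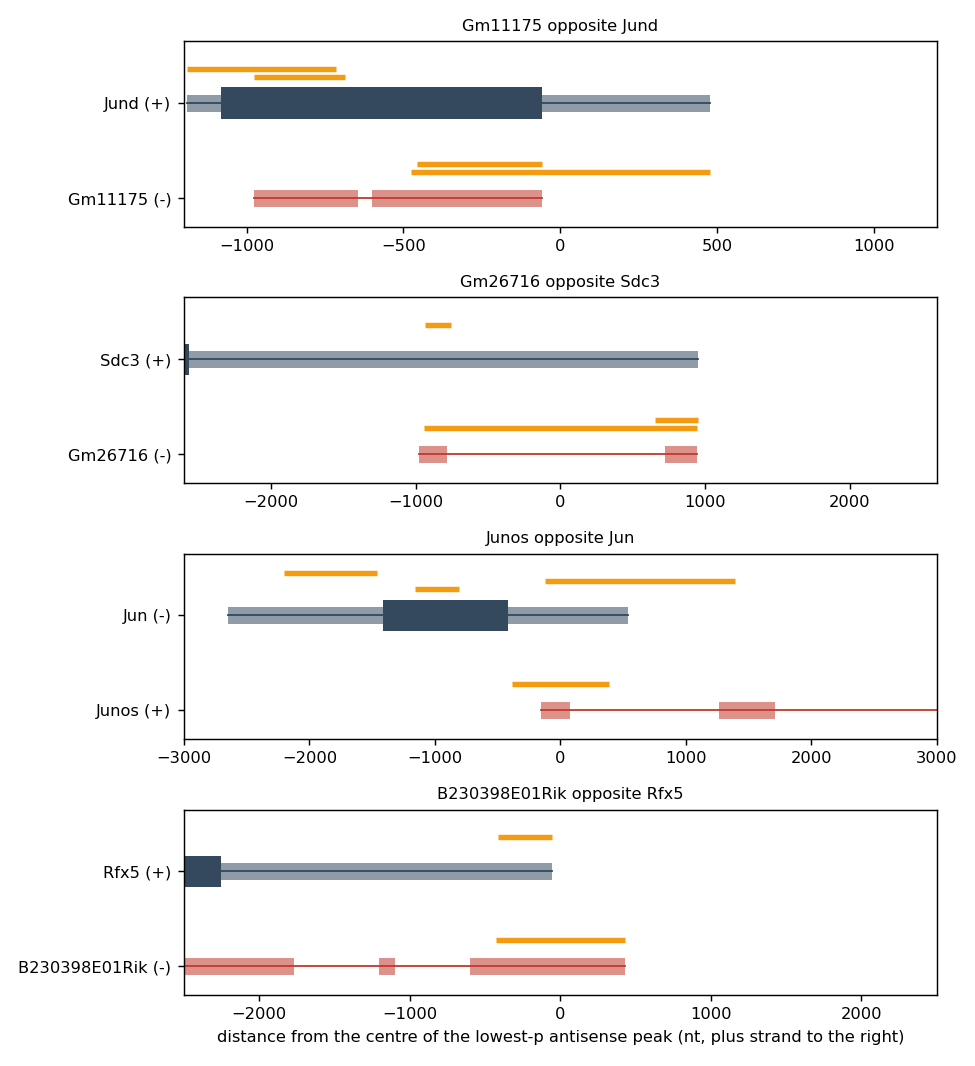
Gene models of 4 antisense genes (red) and the coding genes opposite them (blue; tall boxes are coding sequence, low boxes other exons, lines gene extent), with their peaks in orange above each gene, by distance in nt from the centre of the antisense peak with the lowest p. Both Gm11175 peaks and both Gm26716 peaks lie entirely within a Jund or Sdc3 exon, the Junos peak extends to the left of Junos within Jun, and the B230398E01Rik peak reaches beyond Rfx5.

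Several strong members had no coding exon beneath them. Gm47917 (chr10:54063811-54064893) had a fold of 69.4 and a log10 p of -216, and its peak held 849 of its 1025 exonic bases. Prkag2os1, antisense to an intron of a coding gene, had a fold of 72.1 and a log10 p of -105 over all 991 of its exonic bases (chr5:24902569-24906850). Gm42303, which lies in an intron of the phosphatase gene Ptprd, had a fold of 216 with a log10 p of -50.9. Gm17160 had 167 and -39.0, and Gm15963 had 150 and -35.3. Each of these last 3 peaks covered the whole exonic length of its gene.

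Among genes with no coding gene across from them, Gm4285 (fold 12.7, log10 p -49.1) and Gm11520 (15.9, -35.8) had the lowest p-values. The bidirectional promoter lncRNA Gm20501 had the highest fold of its type, 83.4, with a log10 p of -18.9. Gm36423, with no coding gene under its 502-nt peak, had 81.6 and -23.5. The remaining members among the 10 highest folds lay over a coding exon. They were Gm11683 over 1700012B07Rik (150, -34.9), Gm45732 over the 3′ UTR of Urb2 (112, -25.7) and Gm47123 over the 3′ UTR of Ctsl (79.7, -20.8), the gene of the lysosomal protease cathepsin L. Overlapping second peaks had 9.48 and -1.95 for Gm45732 and 53.1 and -20.8 for Gm47123.

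Most genes had a single peak, 222 of 269 (82.5%), and 39 had 2. Gm28198 had the most, 5, with folds from 1.83 to 12. None of the 5 touched an exon of Gm28198, and all lay over exons of Tmem265. Gm9754 had 4 peaks, with folds from 1.87 to 4.43, all in the 3′ UTR of Fbxw8, an F-box gene. Its peaks formed overlapping pairs that differed by 1 to 30 nt in span, so that counts per gene include the same bases repeatedly. When overlapping peaks were merged, 295 members remained.

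9330160F10Rik had 4 peaks, 2 of them over Borcs6, with folds of 2.08 to 15.2. 4632427E13Rik had 4 peaks with none over a coding exon and folds of 2.98 to 13.3. Gm11131 also had 4, at folds of 3.54, 23.3, 1.5 and 1.43. The strongest of these (chr17:35378002-35378656, log10 p -102) had no coding exon beneath it, and the 2 lowest folds lay over H2-Q4, a nonclassical MHC class I gene. H2-Q genes are near-identical copies, so the assignment of these reads is uncertain.

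Some coding genes across from the members were absent from the list themselves. Under the 126 peaks lay exons of 99 coding genes. Of these, 65 had a peak of their own somewhere and 34 had none, and 22 of the 34 lay under a member with a p-value under 0.001. The share without a peak was 34.3% of these partners, against 53.7% of the 21951 annotated coding genes. Tmem265 and Fbxw8 were among those without, although 5 and 4 member peaks lay over their exons. For 47 members, no coding gene beneath them had a peak, so the gene column names no coding gene of the other strand at these loci. Whether RNA of the coding genes carries m6A there was not tested.

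By region of the coding gene with the most bases beneath the peak, coding sequence accounted for 64 members (50.8%), the 3′ UTR for 51 (40.5%) and the 5′ UTR for 7 (5.56%). Members over a 3′ UTR had a median fold of 3.01 and a median log10 p of -6.80. Those over coding sequence had 5.34 and -5.51.

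A peak assigned to a coding gene of the other strand overlapped 27 members (8.18%), including 24 of the 126 over a coding exon (19.0%, 13.1 to 26.8). In 22 cases the peak belonged to the coding gene whose exon lay beneath. The antisense peak had the higher fold in 13 of the 22 and the coding peak in 8, and in 12 the folds lay within 1.5-fold of each other. Gm44732 and Cdkn1c, the gene of the cell cycle inhibitor p57, had equal folds of 9.01 and equal log10 p of -5.54. Gm44709 and Supt5, an elongation factor, had 3.55 and 3.89, and Gm37401 and the small GTPase Rhoa had 1.38 and 1.29. Gm17134 and the splicing regulator Ptbp1 had 2.69 and 2.50.

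The folds of other pairs lay far apart. Besides B230398E01Rik and 1700095A21Rik, 4921501I09Rik had 13.3 against 2.09 for Ncoa1, whereas Adap2os had 2.31 against 22.8 for Adap2. The spans of these pairs were unlike, with 6539 nt against 121 nt for Ncoa1 and 1301 nt against 18620 nt for Adap2. In the Adap2 pair 25.2% of the shorter span was shared. The medians were 5.69 for the antisense peaks and 3.29 for the coding peaks. Since both rows of a pair draw on partly the same bases, their values are not independent.

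**Figure D4:**
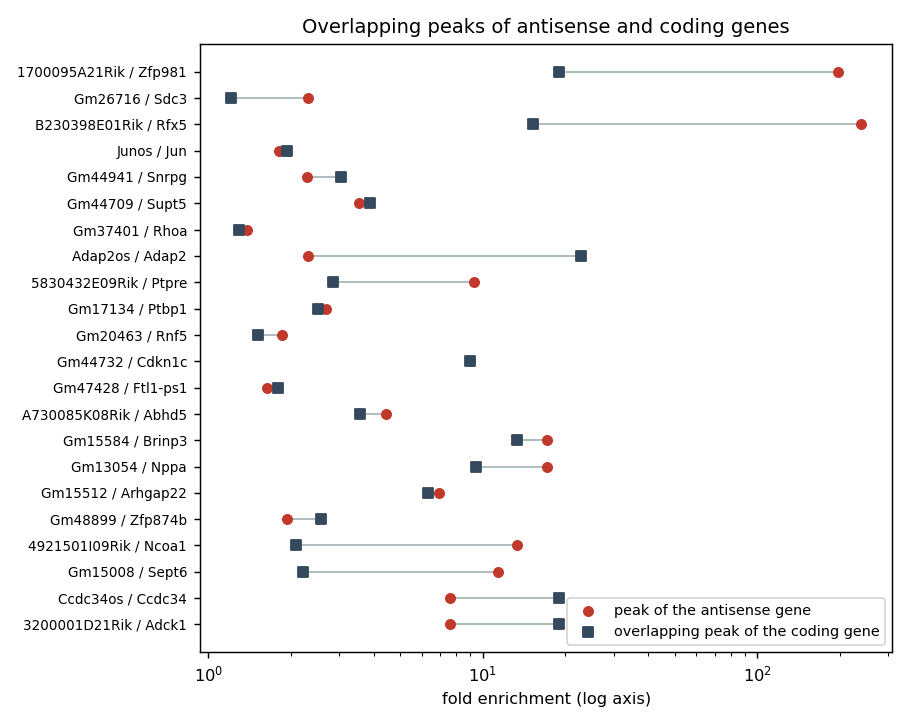
Fold enrichment (x, log axis) of 22 antisense RNA peaks (red circles) and of the overlapping peak of the coding gene beneath (dark squares), in order of the antisense p-value. Folds lie within 1.5-fold of each other in 12 pairs and coincide for Gm44732 and Cdkn1c.

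The share of peaks over a coding exon differed between arrangements of both genes. The arrangements are defined by the overlap of the genes, so these shares follow in part from the annotation. Of the 3149 annotated genes of these types, 1716 lie inside a coding gene of the other strand or contain one. Of those, 110 (6.41%) had a peak, and 85 of their 134 peaks (63.4%) covered a coding exon. Of 672 genes that overlap a coding gene start to start, 76 (11.3%) had a peak, with 17 of 100 peaks over a coding exon (17%). Of 423 that overlap end to end, 40 (9.46%) had a peak, with 24 of 46 over a coding exon (52.2%). Of 338 with no overlapping coding gene, 43 (12.7%) had a peak, with 0 of 50 peaks over a coding exon. In 28 of these 43 an opposite-strand coding gene started within 1000 nt upstream. Median folds were 9.48, 5.03, 6.32 and 9.48 in that order. Whether a gene is expressed in these cells cannot be read from the list, so the shares with a peak mix expression and methylation.

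A list of 34 characterised RNAs held antisense RNAs and others such as Malat1 and Neat1. Of these 34, 13 have either gene type in the annotation and 2 of the 13 had a peak. Over all annotated genes of these types, 8.54% had one (269 of 3149). Airn, which silences its imprinted neighbours, had a 61-nt peak with a fold of 4.27 and a log10 p of -1.95. Tsix, the antagonist of Xist, was assigned a 510-nt peak (chrX:103477347-103477856) with a fold of 11.4 and a log10 p of -2.09 that touched none of its 6077 exonic bases. Its region label named a transcript of another gene.

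Further known RNAs were chosen after their values were seen. Tug1, a chromatin-associated lncRNA, had 3 peaks with folds of 1.61, 6.64 and 11.4 and log10 p of -9.80, -6.45 and -2.09. The highest fold thus had the weakest support. Brip1os had folds of 3.38 and 1.98 with log10 p of -12.0 and -11.4. Flicr, a regulator of Foxp3, had 1 peak at the common value pair of 9.48 and -1.69. None of these peaks lay over a coding exon of the other strand.

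Of 125 lymphocyte genes listed, 113 had a peak of their own, against 46.3% of all coding genes, and 23 are overlapped by an annotated gene of these types. An exon lay under a member for 2 of the 125, Cish and Runx1, and for 0.451% of all coding genes. Cish encodes CIS, an inhibitor of IL-15 signalling in NK cells. The 2 peaks over its 3′ UTR were assigned to Gm17041. One (chr9:107301824-107301974) had a fold of 2.42 and a log10 p of -7.63, with all 151 bases in the Cish 3′ UTR and 15 exonic in Gm17041. The other (chr9:107301689-107301838) had 1.69 and -4.07, with all 150 bases in both. The 3 peaks listed under Cish lay elsewhere in the gene and had log10 p of -1.31, -1.96 and -3.18. The lowest p-values over Cish were therefore listed under the antisense gene.

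Runx1, a transcription factor of lymphocyte development, lay under a peak of Gm26626 (chr16:92605987-92613640). The fold was 1.40 and the log10 p was -6.41. The span held 180 nt of Runx1 coding sequence, of which 42 coincided with exonic bases of Gm26626. Runx1 had 3 peaks of its own, with folds of 2.81, 2.83 and 5.06, and none of them overlapped that of Gm26626.

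Motif counts were compared between strands, with bases shared by several peaks counted once. In the 13737 exonic bases shared with a coding exon, GGAC occurred 57 times on the strand of the antisense gene and 81 times on the coding strand. These are 4.15 (3.14 to 5.38) and 5.90 (4.68 to 7.33) per kb, with intervals that overlap. In the 111936 exonic bases of members without a coding exon the order was the opposite, with 3.49 (3.16 to 3.86) on the antisense gene's strand and 2.87 (2.56 to 3.20) on the other, again with overlapping intervals. Coding peaks had 3.69 per kb on the strand of their gene and 3.23 on the other, and lincRNA peaks 3.37 and 2.87.

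DRACH, which matches far more often, occurred 18.4 (16.2 to 20.8) and 18.3 (16.1 to 20.7) times per kb in the shared bases. It occurred 21.2 (20.4 to 22.1) and 19.4 (18.6 to 20.3) times in members without a coding exon. Over all exonic bases of the members the values were 21.5 (20.8 to 22.2) and 19.1 (18.4 to 19.8), against 20.1 and 19.7 over all peaks. Peaks of lincRNAs had 21.6 (21.2 to 22.0) and 20.1 (19.7 to 20.4), and coding peaks 19.9 and 19.5. In each of these sets except the shared bases, the gene's strand was the denser one and the intervals of the strands did not overlap. In shared bases of peaks with a p-value under 0.001 DRACH occurred 19.3 (16.7 to 22.2) times on the antisense gene's strand and 17.6 (15.1 to 20.3) on the other. Only for DRACH in members without a coding exon did the intervals of both strands not overlap, among these comparisons of shared bases and of members without a coding exon. These densities describe base composition as well as motif choice.

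In the central 150 nt of the exonic part, GGAC was found on the gene's strand in 48.6% of 72 members over a coding exon and in 36.4% of 143 without one. It was found on the other strand in 47.2% and 37.1%. Over 14683 windows from all peaks the shares were 43.1% and 38.3%. DRACH was found in 93.1% to 94.4% of the members' windows on either strand, against 93.5% and 92.6% of all windows, so its presence separates no class. The windows thus show neither strand difference seen in the GGAC densities, on the coding strand of the shared bases or on the antisense gene's strand elsewhere.

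**Figure D5:**
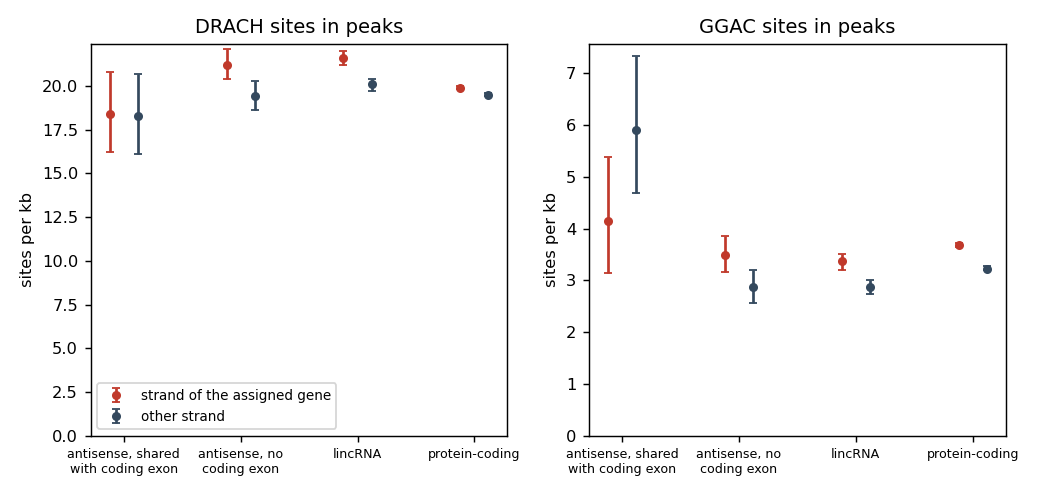
DRACH (left) and GGAC (right) sites per kb (y) in the exonic parts of 4 sets of peaks, on the strand of the assigned gene (red) and on the other strand (blue), with 95% Poisson intervals. GGAC is denser on the coding strand in bases that antisense RNA peaks share with a coding exon (5.90 against 4.15), with overlapping intervals, and denser on the strand of the assigned gene in the other 3 sets, where the intervals overlap for antisense RNA peaks without a coding exon.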

How the data were processed

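The authors trimmed the reads, aligned them to GRCm38, called peaks with exomePeak and annotated them with ChIPseeker. Per the labels, the tools listed were cutadapt, fastp, HISAT2 1.0, HOMER 4.1, ChIPseeker 1.0, StringTie 1.0 and edgeR 4.1. The deposited fold enrichment is a ratio of immunoprecipitate over input, the deposited score is the log10 of the unadjusted peak-calling p-value (highest value -1.30), and positions are those the authors gave. How replicates were combined is not given in the sources used here. The list had 20751 rows and 0 columns with a value per sample. The 24 repeated rows were dropped, and 20706 peaks had a known gene identifier.

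Gene types, exons and coding sequence came from GENCODE M21, with exons merged over isoforms and coding exons taken from protein-coding transcripts. An overlap needed 1 nt. Motifs were counted on both strands with Python 3.11.15 (numpy 2.4.6, pandas 2.3.3, scipy 1.17.1, matplotlib 3.10.9), and overlap and counting functions were tested on simulated data. Sequences are those of the GRCm38 reference.

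The members and lists were chosen with earlier results of these data known. Named genes follow a rule: the 10 highest folds, the 10 lowest p-values, the 5 genes with most peaks, characterised antisense RNAs, peaks over lymphocyte genes, and the 2 lowest p-values of each gene arrangement. Others are examples of a count or were chosen after their values were seen.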

Additional observations from a re-analysis of the deposited data

How the results depend on the processing

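No paired analysis was possible because the list holds no value per sample, and for the same reason no replicate could be left out. Of 24 alternative settings for 6 results, 13 left the value within its interval or within 1.5 times the main count and 11 moved it. Only the ratio of DRACH sites between strands has a direction, and no alternative reversed that ratio. Counts, medians and shares cannot reverse. The number of members fell from 330 to 194 with a fold of at least 5 and to 160 with a p-value under 0.001. With that p-value threshold the median fold was 10.9, the share over a coding exon 50%, the share overlapped by a peak of a coding gene on the other strand 12.5% and the median share of the gene inside the peak 36.1%, against 7.59, 38.2%, 8.18% and 21.9% without it. The share over a coding exon was 30.3% when only the exonic part of the peak counted, 17.9% when the coding exon had to cover at least 50% of that part, 23.0% when only coding sequence counted and 31.4% with a fold of at least 5. The log2 ratio of DRACH sites per kb on the antisense gene's strand to those on the other strand was 0.172 in exonic parts and 0.0922 over whole spans. The cause of these changes was not tested. Alternatives added after seeing the data were any transcript of a coding gene (38.8% over a coding exon), 1 peak for each gene (35.7%) and members without a coding exon (median fold 9.32). The depth is unknown, so no floor for undetected peaks can be given.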
